A study of Mus musculus with 8 samples.

Results

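The genes described here encode nuclear subunits of respiratory complexes III, IV and V. They were chosen by name from the table of 20254 genes: every name that starts with Uqcr, Cox5, Cox6, Cox7, Cox8 or Atp5, plus Cyc1, with a deposited mean of at least 10. Of 41 such names, 38 passed that minimum: 9 of complex III, 11 of complex IV, 15 of complex V and 3 related genes that share the naming but are not subunits of these complexes. The lowest mean above the minimum was 24.1 (Cox7a1), and the 3 names below it were Cox7b2 at 1.12, Cox8b at 0.505 and Cox6a2 at 0.24. All 38 genes were among the 15381 genes tested.

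The cells were nephron progenitors of the mouse embryonic kidney, the cap mesenchyme cells from which nephron epithelium forms. The libraries labelled mutant came from cells with genotype VHLNP-/- (4 libraries), and the libraries labelled control came from cells with genotype VHLNP+/- (4 libraries). Both groups were of the strain Six2EGFPcre, in which Six2, a transcription factor of these cells, drives a fusion of GFP and Cre recombinase. Both were dissected at embryonic day 17.5, dissociated with collagenase and sorted by GFP fluorescence. The controls are thus not wild type: they lack 1 copy of Vhl in the same cells and carry the same transgene. Cells that keep GFP after leaving the progenitor state could also pass such a sort. Nothing in the labels says that the libraries came from separate animals or litters, so the p-values rest on the spread among these 8 samples, part of which may be technical.

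The respiratory chain passes electrons from fuel to oxygen across the inner mitochondrial membrane and uses the resulting proton gradient to make ATP. Complex III, cytochrome bc1, takes electrons from ubiquinol and gives them to cytochrome c. Complex IV, cytochrome c oxidase, passes them to oxygen, and complex V, ATP synthase, lets protons back through a turning membrane ring and makes ATP in its F1 head. A few core subunits are encoded by mitochondrial DNA and were not analysed here. Several complex IV subunits exist in versions made in different tissues, such as muscle and testis. The protein made from Vhl binds the oxygen-regulated subunits of hypoxia-inducible factor (HIF) and has them destroyed when oxygen is present.

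Levels are normalised reads: reads assigned to a gene divided by the size factor of the library. Vhl had 320, 285, 331 and 336 normalised reads in mutants 1 to 4, against 1134, 1379, 1208 and 1180 in controls 1 to 4. Its log2 fold change, mutant minus control, was -1.94 (SE 0.08, adjusted p = 4.22e-08 by limma), and an exact permutation test (two-sided, 70 relabellings) gave p = 0.0286, the smallest it can give. The libraries held between 37252683 and 46515762 reads. Summed over 10 nephron progenitor markers, Six2 and Cited1 among them, the level was 116414 to 127534 in mutants and 118201 to 132618 in controls. At an adjusted p under 0.05 by limma, 1 of these 10 was higher in mutants and 2 were lower, against 8.43% of all genes in either direction. Gdnf was higher (log2 fold change 0.39, adjusted p = 0.0101). Meox1 (-0.40, adjusted p = 0.00396) and Osr1 (-0.25, adjusted p = 0.0404) were lower. Markers of maturing tubule summed to 4235 to 10790 in mutants and 2368 to 8946 in controls. Podocyte markers summed to 2209 to 3611 and 2512 to 8881, and stromal markers to 26514 to 54610 and 31094 to 68569, in the same order of groups. Leukocyte markers summed to 591 to 960 in mutants and 522 to 1007 in controls. In such bulk samples, fewer cells of a type and less RNA per cell cannot be told apart.

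The promoter sequences of 4 members are shown. Cox6b2 alone among the members passed the test, and Cox6b1 is the widely expressed version of the same subunit. Cox5a is also called by the authors' deposited table. Uqcrc1, a core subunit of complex III that was not called, is shown as an example. Each sequence runs from 250 bases before to 50 bases after the gene start, 5′ to 3′ on the strand of the gene, from RefSeq on GRCm38.p6. Capitals mark matches on either strand to letters bound by factors that act on respiratory or hypoxic genes: GCGCA, any base and GCGC in a row (NRF1), CCGGAAG (ETS family, GABP included), AAGATGGC (YY1) and ACGTG or GCGTG (the core of the HIF site). The Cox6b2 window is chr7:4753045-4753344 on the minus strand, that of Cox6b1 is chr7:30626065-30626364 on the minus strand, that of Cox5a is chr9:57520982-57521281 on the plus strand, and that of Uqcrc1 is chr9:108936398-108936697 on the plus strand.
Cox6b2: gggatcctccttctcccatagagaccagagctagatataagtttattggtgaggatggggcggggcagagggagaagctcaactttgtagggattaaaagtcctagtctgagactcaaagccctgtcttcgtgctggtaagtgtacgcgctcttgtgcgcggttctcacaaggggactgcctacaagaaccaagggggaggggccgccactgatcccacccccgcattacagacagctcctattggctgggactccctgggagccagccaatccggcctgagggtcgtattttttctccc
Cox6b1: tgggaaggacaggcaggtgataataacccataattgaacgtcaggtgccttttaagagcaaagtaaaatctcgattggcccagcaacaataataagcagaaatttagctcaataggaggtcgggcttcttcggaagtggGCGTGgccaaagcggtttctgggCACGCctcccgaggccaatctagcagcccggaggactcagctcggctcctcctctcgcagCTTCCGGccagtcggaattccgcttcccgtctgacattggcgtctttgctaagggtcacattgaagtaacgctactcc
Cox5a: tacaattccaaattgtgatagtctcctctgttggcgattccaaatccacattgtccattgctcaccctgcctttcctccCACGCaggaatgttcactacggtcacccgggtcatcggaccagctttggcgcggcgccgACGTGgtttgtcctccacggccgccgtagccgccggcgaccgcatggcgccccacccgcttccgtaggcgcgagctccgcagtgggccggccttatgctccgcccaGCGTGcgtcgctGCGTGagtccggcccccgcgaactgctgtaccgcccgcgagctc
Uqcrc1: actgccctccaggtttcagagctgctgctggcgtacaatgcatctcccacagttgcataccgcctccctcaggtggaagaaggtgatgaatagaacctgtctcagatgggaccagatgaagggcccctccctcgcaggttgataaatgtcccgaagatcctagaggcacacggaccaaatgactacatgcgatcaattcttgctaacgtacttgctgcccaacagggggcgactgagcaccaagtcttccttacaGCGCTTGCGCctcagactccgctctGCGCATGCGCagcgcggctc
The Cox6b2 window held none of these letters. The Cox6b1 window held 1 ETS match and 2 matches to the HIF core, the Cox5a window held 4 matches to the HIF core, and the Uqcrc1 window held 2 NRF1 matches.

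Of the 38 members, 32 had a promoter in the table. Some genes had more than 1 promoter window, and a gene counted if any of its windows held the letters. The NRF1 letters were found for 8 of these 32 genes (25.0%, against 5.19% of 27025 genes), and the ETS letters were found for 10 (31.2%, against 9.93%). The YY1 letters were found for 4 (12.5%, against 3.19%). ACGTG or GCGTG was found for 24 (75.0%, against 46.7%). The NRF1 and GCGTG letters can share bases, and all of these short words turn up more often in windows rich in G and C. A match describes letters and is not a measured binding site.

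Among the 38 members, 0 were called higher and 1 was called lower in mutant cells at an adjusted p under 0.05 (limma, adjusted over all genes tested). Over all genes tested, 5.40% were called higher and 3.03% lower, or 8.43% in either direction. The gene called is Cox6b2, the version of a complex IV subunit best known from testis. At an unadjusted p under 0.05, 8 of 38 members were lower, a larger share than the 11.2% of all genes, and 0 of 38 were higher, against 12.0%. The authors' deposited table, with its own test, calls 2 members lower, Cox6b2 and Cox5a, and 0 higher; it calls 5.35% of its genes lower. The count of members called at an adjusted p under 0.05 is thus near the background.

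The signs were less evenly split than the calls. The log2 fold change was below 0 for 31 of 38 members (81.6%), against 51.5% of all genes tested, and its median over the members was -0.11, against -0.01 over all genes. For complex III it was below 0 for 8 of 9 genes, with a median of -0.12 and a range from -0.23 to 0.00. In complex IV, 8 of 11 genes were below 0, with a median of -0.14 and a range from -0.46 to 0.47. For complex V the count was 14 of 15, the median -0.11 and the range -0.21 to 0.03. The members share libraries and vary together between them, as described below, so these counts are not counts of independent genes. Without the 8 members that have a near-identical copy among annotated transcripts, 26 of 30 were below 0, with a median of -0.12. Without the 11 members that overlap a gene on the other strand, 21 of 27 were below 0, with the same median.

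**Figure D1:**
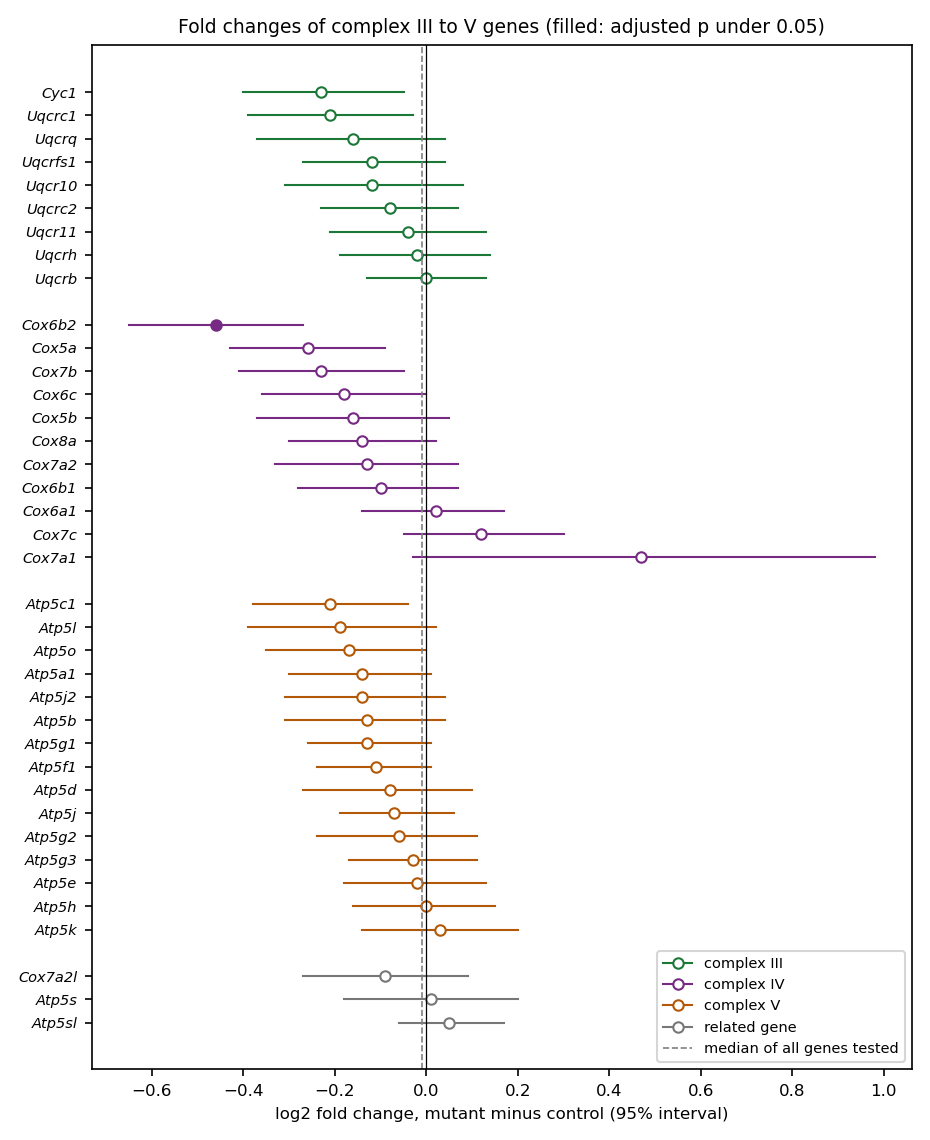
Log2 fold change, mutant minus control, of the 38 members with its 95% interval, ordered within complex III, complex IV, complex V and the related genes; a filled point marks an adjusted p under 0.05. Of the 38 points, 31 lie left of 0, and Cox6b2 at -0.46 is the filled one.

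Summed by complex, the subunit transcripts had a lower mean in mutants, and the libraries of the groups overlapped for all 3 complexes. The 9 genes of complex III summed to 48494, 47403, 41508 and 47809 normalised reads in mutants 1 to 4, against 44412, 53481, 50009 and 52364 in controls 1 to 4. The mutant mean was 46303 ± 3229, against 50067 ± 4038 in controls (SD, n = 4 each), or 92.5% of the control level. The groups overlapped: control 1 was lower than mutants 1, 2 and 4.

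The 11 genes of complex IV summed to 49504, 46691, 41768 and 49003 in mutants 1 to 4, against 45081, 53916, 50309 and 53338 in controls 1 to 4. The 15 genes of complex V summed to 192781, 191847, 165675 and 192884 in mutants, against 182160, 213048, 201879 and 210469 in controls. Mutant means were 92.3% of the control mean for complex IV and 92% for complex V. In both complexes mutant 3 was the lowest library, control 1 was below mutants 1, 2 and 4, and controls 2, 3 and 4 were above all mutants.

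**Figure D2:**
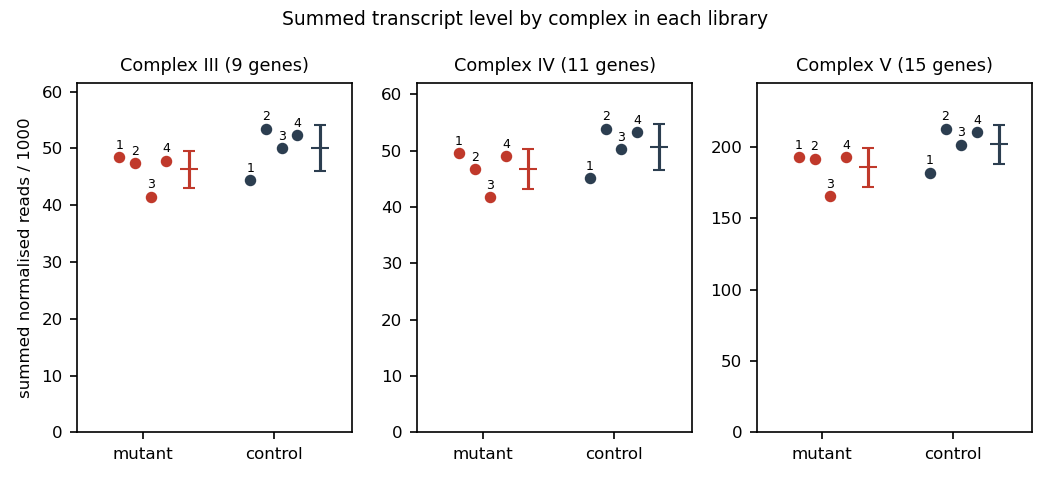
Summed normalised reads (axis in units of 1000) of the subunit genes of complexes III, IV and V in each library, with numbers for the replicates and the group mean ± SD beside the points. In each panel mutant 3 is the lowest library and control 1 lies among the mutants.

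The same 2 libraries were low for nearly all 35 subunit genes. Set against the mean of its own group, mutant 3 deviated by a median of -0.16 on the log2 scale and control 1 by -0.16, while the median over all genes lay between -0.01 and 0.02 in every library. Mutant 3 was the lowest mutant for 31 of 35 genes and the lowest of all 8 libraries for 29. Control 1 was the lowest control for 32 of 35. The highest of the 8 libraries was control 2 for 18 genes and control 4 for 13. Subunits of all 3 complexes thus varied together from library to library in both groups, and these deviations were larger than the median difference between the groups.

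Leaving out control 1 gave a median log2 fold change of -0.17 over the 35 subunit genes, and leaving out mutant 3 gave -0.07, against -0.12 with all libraries. With both left out it was -0.12, and 29 of 35 genes were below 0. Called members numbered 5 without control 1, where 4.27% of all genes were called lower. They numbered 4 without both libraries, where 2.77% were called lower; these were Atp5c1, Cox6b2, Cyc1 and Uqcrc1. With libraries weighted by quality, 8 members and 8.93% of all genes were called lower. Leaving out the 2 libraries was chosen after seeing the data. What sets these libraries apart was not tested.

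**Figure D3:**
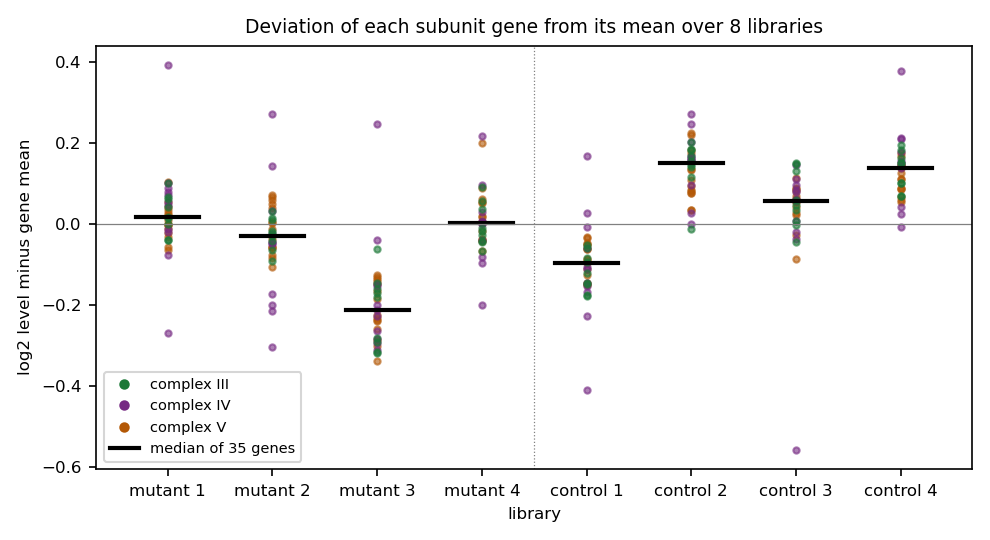
Log2 level of each of the 35 subunit genes minus its mean over the 8 libraries, with the median of the genes as a black bar in each library. The medians are 0.02, -0.03, -0.21 and 0.00 in mutants 1 to 4 and -0.10, 0.15, 0.06 and 0.14 in controls 1 to 4.

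Complex III. The members with the smallest p-values were Cyc1, Uqcrc1 and Uqcrq, and 0 of 9 were called. Cyc1, which encodes cytochrome c1 and hands electrons to cytochrome c, had 5547, 5577, 4579 and 5436 normalised reads in mutants 1 to 4, against 5465, 6463, 6314 and 6463 in controls 1 to 4. Mutants 1 and 2 were above control 1 and below the other controls. Its log2 fold change was -0.23 (SE 0.08, adjusted p = 0.113 by limma), and the level was 85.5% of that in controls. Without control 1 it was -0.28 (adjusted p = 0.0347), which passed the threshold. In the other fits that left out 1 library Cyc1 was not called, with log2 fold changes up to -0.16 and adjusted p up to 0.256 by limma. Cyc1 lies on chr15:76343523-76346260, plus strand, and its promoter is not in the table.

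Uqcrc1 encodes a core subunit on the matrix side of complex III. It had 7986, 8114, 6582 and 7966 normalised reads in mutants 1 to 4, against 7753, 9452, 9116 and 9110 in controls 1 to 4. Of the mutants, only mutant 3 was below control 1. The log2 fold change was -0.21 (SE 0.08, adjusted p = 0.156 by limma). Uqcrq, a small supernumerary subunit next to cytochrome b, had 2116, 1851, 1612 and 1916 in mutants, against 1780, 2184, 2162 and 2259 in controls, with a log2 fold change of -0.16 (SE 0.09, adjusted p = 0.338 by limma). Its groups overlapped as well, with control 1 below mutants 1, 2 and 4.

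The other complex III members had fold changes nearer to 0. Uqcrfs1, the Rieske iron-sulfur protein, and the small subunit Uqcr10 each had a log2 fold change of -0.12, with adjusted p-values of 0.375 and 0.479 by limma. Uqcrc2, the second core protein, was at -0.08, Uqcr11 at -0.04, Uqcrh, the hinge protein, at -0.02 and Uqcrb, which binds next to the ubiquinone pocket, at 0.00. Core and catalytic subunits thus ran from -0.23 to -0.08 and the small supernumerary ones from -0.16 to 0.00, ranges that overlap. Uqcrb has 3 near-identical copies among annotated transcripts, and Uqcrb, Uqcrc2 and Uqcrh each overlap a gene on the other strand, so their counts are less certain.

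Complex IV. Cox6b2 was lower in all 4 mutant libraries than in any control library. It had 344, 336, 373 and 361 normalised reads in mutants 1 to 4, against 466, 501, 448 and 540 in controls 1 to 4. The mutant mean was 354 ± 17.0, against 489 ± 40.7 in controls (SD, n = 4 each), or 72.5% of the control level. The gap between the highest mutant and the lowest control was larger than the mutant SD. The log2 fold change was -0.46 (SE 0.09, 95% interval -0.65 to -0.27, adjusted p = 0.0064 by limma). It stayed past the threshold when each library was left out in turn (adjusted p from 0.00788 to 0.0273), and was lost when control 2 and mutant 2 were left out together (-0.43, adjusted p = 0.0678). Groups that did not overlap, lower in mutants, were found for 6.72% of all genes and for 1 of 38 members.

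Cox6b2 lies on chr7:4751792-4753094, minus strand (mm10, GENCODE M21), has no near-identical copy by the limits used and overlaps no gene on the other strand. Among the mutants its level did not follow the library pattern of the other subunits: mutant 3, the lowest mutant for 31 of 35 genes, was the highest mutant for Cox6b2. Among the controls it did so in part. Controls 4 and 2 were its highest (540 and 501), and control 2 was the highest control for 19 of the 35 genes and control 4 for 16. Its lowest control was control 3 (448), not control 1 (466). The authors' deposited table gives a log2 fold change of -0.47 with an adjusted p of 8.00e-05.

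Cox6b1, the widely expressed version of the same subunit, which sits on the side where cytochrome c docks, had 5928, 5478, 4756 and 5417 normalised reads in mutants 1 to 4. Controls 1 to 4 had 5172, 6228, 5596 and 6154. The groups overlapped and the log2 fold change was -0.10 (SE 0.08, adjusted p = 0.494 by limma). Per kilobase of transcript, Cox6b1 averaged 11100 in mutants and 11908 in controls, while Cox6b2 averaged 813 in mutants and 1123 in controls. Of both versions together, Cox6b2 made up 6.09%, 6.41%, 8.06% and 6.93% in mutants 1 to 4, against 9.14%, 8.24%, 8.20% and 8.93% in controls 1 to 4, per length. Mutants were lower than controls without overlap, although mutant 3 came close to the lowest control.

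Cox5a and Cox7b followed with unadjusted p-values under 0.05 but were not called. Cox5a, a subunit on the matrix side of complex IV, had 4427, 3804, 3498 and 4008 normalised reads in mutants 1 to 4, against 4267, 4815, 4746 and 4963 in controls 1 to 4. Mutants 2, 3 and 4 were below all controls and mutant 1 was above control 1. The fitted log2 fold change was -0.26 (SE 0.08, adjusted p = 0.0642 by limma), and the level was 83.6% of that in controls. The call depends on single libraries: the adjusted p was 0.0306 without control 1 and 0.0238 without mutant 1. In the other fits that left out 1 library Cox5a was not called, with adjusted p up to 0.173 by limma. The authors' deposited table gives -0.26 with an adjusted p of 0.0203. Cox5a overlaps Gm26631 on the other strand.

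Cox7b, a small subunit needed for assembly of complex IV, had 4882, 3922, 3786 and 4301 normalised reads in mutants 1 to 4, against 4634, 5082, 4752 and 5270 in controls 1 to 4. As for Cox5a, 3 of 4 mutants were below all controls and mutant 1 was not. The log2 fold change was -0.23 (SE 0.08, adjusted p = 0.114 by limma). It passed the threshold without mutant 1 (-0.30, adjusted p = 0.0252), a fit in which 3 members and 3.06% of all genes were called lower. In the other fits that left out 1 library Cox7b was not called, with log2 fold changes up to -0.18 and adjusted p up to 0.27 by limma. Cox6c, another small subunit, had a log2 fold change of -0.18 (adjusted p = 0.207). Cox5b, which binds a zinc ion on the matrix side, was at -0.16 (adjusted p = 0.366).

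**Figure D4:**
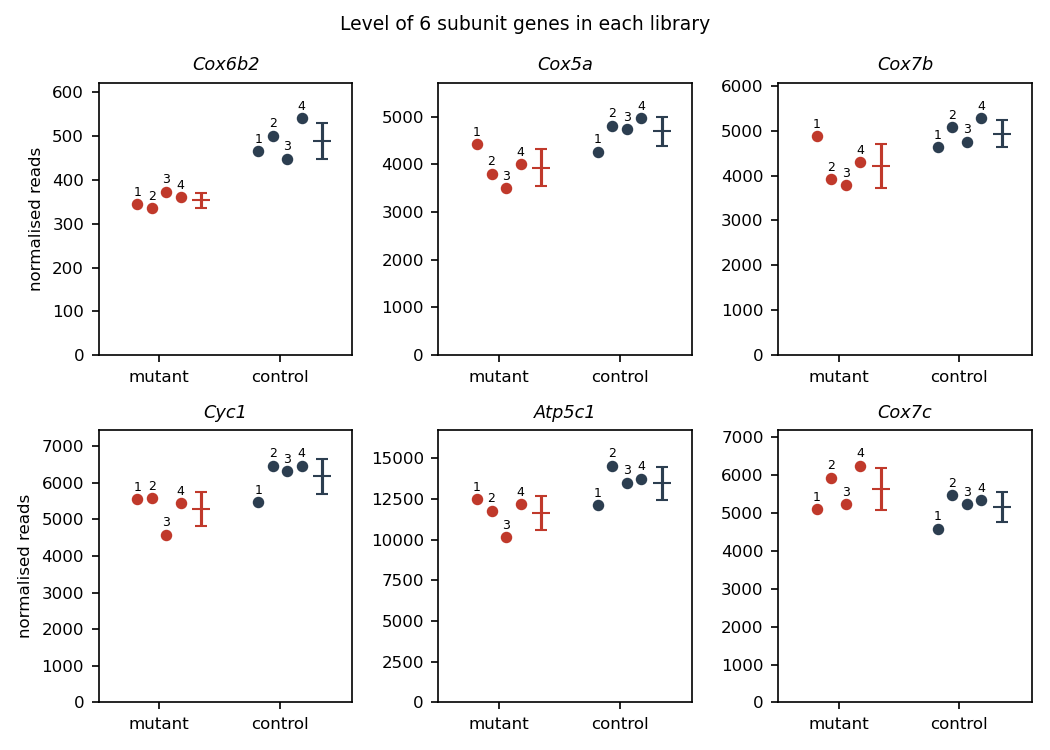
Normalised reads of Cox6b2, Cox5a, Cox7b, Cyc1, Atp5c1 and Cox7c in each library, numbered by replicate, with the group mean ± SD beside the points. Only the Cox6b2 panel has no overlap between mutant and control libraries; in the Cox7c panel the mutant mean is the higher one (5630, against 5165 in controls).

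In complex IV, 3 of 11 members had a log2 fold change above 0, and none of them was called. Cox7c, a small membrane subunit, had 5098, 5940, 5229 and 6251 normalised reads in mutants 1 to 4, against 4592, 5479, 5242 and 5347 in controls 1 to 4. The 2 highest libraries were mutants 2 and 4, and the others overlapped. Here the log2 fold change was 0.12 (SE 0.08, adjusted p = 0.400 by limma), and Cox7c has 1 near-identical copy among annotated transcripts. Cox6a1, the liver-type version of a subunit with a muscle partner, was level between the groups at 5038 ± 364 in mutants and 4978 ± 361 in controls (SD, n = 4 each), with a log2 fold change of 0.02.

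Cox7a1 encodes the heart and skeletal muscle version of subunit 7a. It was the rarest member, with 31.3, 28.7, 28.2 and 24.1 normalised reads in mutants 1 to 4, against 17.5, 23.6, 15.7 and 24.0 in controls 1 to 4. The groups did not overlap, as for 8.54% of all genes in this direction, but mutant 4 and control 4 were almost the same. Its log2 fold change was 0.47 (SE 0.23, 95% interval -0.03 to 0.98, adjusted p = 0.248 by limma). It rested on 33, 31, 28 and 21 reads in mutants and 18, 24, 15 and 25 in controls, so counting error alone is large.

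Of 13 striated muscle markers, 9 were tested, and all 9 had a log2 fold change above 0. Their summed level, over all 13, was 1346 to 1482 in mutants and 1009 to 1296 in controls. Tnnt3, a fast muscle troponin, was called higher, at 450 ± 40.4 in mutants and 265 ± 24.1 in controls (SD, n = 4 each; adjusted p = 6.23e-04 by limma). The defining markers Mb (myoglobin) and Ckm (muscle creatine kinase) were below the minimum for testing, at a mean of 0.5 and 4.6 in mutants and 0.5 and 6.1 in controls. The myosin genes Myh3 and Myh8 were also below it, with lower means in mutants (2.0 and 2.4) than in controls (3.9 and 4.6). The control means rest largely on control 1. In controls 1 to 4, Myh8 had 15.5, 1.0, 1.0 and 1.0 normalised reads, and Ckm had 19.4, 0.0, 2.1 and 2.9. The means of these untested markers thus give no clear side. What part muscle cells have in the Cox7a1 values was not tested.

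Cox7a2, the widely expressed version of subunit 7a, had 5357, 4925, 4185 and 5112 normalised reads in mutants 1 to 4, against 4612, 5661, 5456 and 5685 in controls 1 to 4. The groups overlapped, and the log2 fold change was -0.13 (SE 0.09, adjusted p = 0.420 by limma). Cox7a2l, which resembles these subunits but links complexes III and IV into supercomplexes, had 11921, 13219, 10745 and 11152 in mutants, against 11011, 13792, 12510 and 12743 in controls. Its log2 fold change was -0.09 (SE 0.08, adjusted p = 0.565 by limma), again with overlapping groups. Per kilobase, the order of the family was the same in both groups: Cox7a2l at 10666 in mutants and 11350 in controls, Cox7a2 at 7427 and 8124, and Cox7a1 at 63.9 and 46.0. Cox7a1 made up 0.868%, 0.869%, 1% and 0.702% of Cox7a1 and Cox7a2 together in mutants 1 to 4, against 0.565%, 0.621%, 0.429% and 0.630% in controls 1 to 4, per length.

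Cox8a, the widely expressed version of the smallest subunit, had 8175, 8020, 7156 and 8287 normalised reads in mutants 1 to 4, against 7677, 9275, 8751 and 9209 in controls 1 to 4. Its log2 fold change was -0.14 (SE 0.07, adjusted p = 0.283 by limma), and control 1 again lay among the mutants. The muscle versions of the other subunits were near absent. Cox6a2 had 1 read in all mutant libraries together and 1 in all control libraries, and Cox8b had 2 and 2. Cox7b2, the testis partner of Cox7b, had 8 reads in mutants and 1 in controls. These 3 genes were below the minimum and were not tested, and Cox8c was not among the 41 names that matched the rule. Among the 11 complex IV members, Cox6b2 was more abundant than Cox7a1, the other tissue version that passed the minimum, in both groups.

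**Figure D5:**
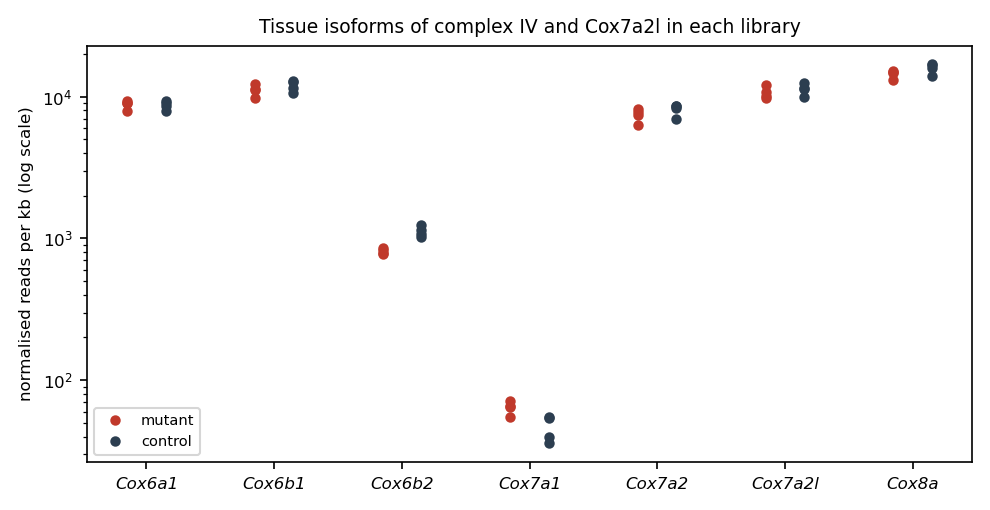
Normalised reads per kilobase of transcript (log scale) of the tissue versions of complex IV subunits and of Cox7a2l in each library, mutants left of controls for each gene. Cox6b2 lies at 813 in mutants and 1123 in controls on average, more than 10 times under Cox6b1 in both groups, and Cox7a1 at 63.9 and 46.0, more than 100 times under Cox7a2.

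Complex V. The F1 head, the stalk that holds it and the membrane part had similar fold changes, with medians of -0.13 over 5 genes, -0.09 over 4 genes and -0.10 over 6 genes. None of the 15 was called. The catalytic beta subunit Atp5b was the most abundant per kilobase, at 25507 in mutants and 27977 in controls, with a log2 fold change of -0.13 (adjusted p = 0.359 by limma). The alpha subunit Atp5a1 had 18135 per kilobase in mutants and 20032 in controls, with a log2 fold change of -0.14 (adjusted p = 0.252). The small head subunits Atp5d and Atp5e were at -0.08 and -0.02.

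Atp5c1 encodes the gamma subunit, the shaft that turns inside the head. It had 12484, 11783, 10137 and 12161 normalised reads in mutants 1 to 4, against 12097, 14538, 13509 and 13741 in controls 1 to 4. Mutants 2 and 3 were below all controls, and mutants 1 and 4 were above control 1. The log2 fold change was -0.21 (SE 0.08, adjusted p = 0.132 by limma), and without control 1 it was -0.26 (adjusted p = 0.0486). In the other fits that left out 1 library Atp5c1 was not called, with log2 fold changes up to -0.15 and adjusted p up to 0.303 by limma. The gene has 1 near-identical copy.

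In the stalk, Atp5o, which fixes the stalk to the head, had 8086, 7388, 6387 and 7557 normalised reads in mutants 1 to 4, against 7515, 8653, 8240 and 8742 in controls 1 to 4. Mutants 2 and 3 were below all controls. The log2 fold change was -0.17 (SE 0.08, adjusted p = 0.206 by limma). The other stalk subunits were at -0.11 for Atp5f1, -0.07 for Atp5j and 0.00 for Atp5h, and Atp5h averaged 6556 ± 479 in mutants and 6572 ± 442 in controls (SD, n = 4 each). Atp5h has 3 near-identical copies and Atp5o has 1.

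In the membrane part, 3 genes encode the same mature subunit c, the unit of the turning ring, each with its own import sequence. Atp5g1 had 4055, 3921, 3594 and 4102 normalised reads in mutants 1 to 4, against 3993, 4312, 4267 and 4521 in controls 1 to 4, with a log2 fold change of -0.13 (SE 0.06, adjusted p = 0.246 by limma). Atp5g2 had 9913, 10568, 8563 and 10445 in mutants, against 9219, 10859, 10682 and 10488 in controls, with a log2 fold change of -0.06 (adjusted p = 0.676). Atp5g3 had 10218, 10908, 9698 and 11304 in mutants, against 10009, 11256, 10429 and 11283 in controls, with a log2 fold change of -0.03 (adjusted p = 0.839). All 3 overlapped between the groups.

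The balance among these 3 genes was close to equal between the groups. Of the reads assigned to them, Atp5g1 took 16.8%, 15.4%, 16.4% and 15.9% in mutants 1 to 4, against 17.2%, 16.3%, 16.8% and 17.2% in controls 1 to 4. Atp5g2 averaged 40.5% ± 1.03 in mutants and 40.7% ± 1.12 in controls, and Atp5g3 averaged 43.3% ± 0.924 in mutants and 42.4% ± 0.912 in controls (SD, n = 4 each). Atp5g2 has 2 near-identical copies. Of the remaining membrane subunits, Atp5l was at -0.19 (adjusted p = 0.253), Atp5j2 at -0.14 (adjusted p = 0.351) and Atp5k at 0.03 (adjusted p = 0.859 by limma). Atp5l has 9 near-identical copies, the most of any member, and their effect on its value was not measured.

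Apart from Cox7a2l, the related genes were Atp5s, a coupling factor of ATP synthase, and Atp5sl, which acts in the assembly of complex I. Atp5s averaged 357 ± 13.1 normalised reads in mutants and 355 ± 29.6 in controls, and Atp5sl averaged 1455 ± 51.8 in mutants and 1401 ± 21.4 in controls (SD, n = 4 each). Their log2 fold changes were 0.01 and 0.05, and neither was called (adjusted p = 0.960 and 0.594 by limma).

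Subunits and partners of these complexes whose names the rule did not catch were read from the same fit. Of 8, 2 were called higher and 1 lower, against 5.40% of all genes called higher and 3.03% lower. Cox4i2, the hypoxia-responsive version of subunit 4, had 960, 966, 894 and 980 normalised reads in mutants 1 to 4, against 63.1, 80.5, 61.6 and 50 in controls 1 to 4 (log2 fold change 3.90, SE 0.13, adjusted p = 7.19e-09 by limma), while its common partner Cox4i1 averaged 11415 in mutants and 13052 in controls (-0.19, adjusted p = 0.180). Ndufa4l2 averaged 2202 ± 199 in mutants and 77.5 ± 21.3 in controls, and Ndufa4, now counted as a complex IV subunit, averaged 4901 ± 428 in mutants and 7006 ± 629 in controls (SD, n = 4 each), with log2 fold changes of 4.85 and -0.52 (adjusted p = 2.47e-08 and 0.00232). The other members of that list were cytochrome c itself (Cycs, -0.11), the ATP synthase inhibitor Atpif1 (-0.18) and the small ATP synthase partners Usmg5 (-0.05) and 2010107E04Rik (-0.04), none of which was called. None of the 38 members had a fold change near those of Cox4i2 or Ndufa4l2: their highest was 0.47 and their lowest -0.46.

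Complex II, which feeds electrons to ubiquinone and has no subunit among the members, had 4 of 4 log2 fold changes below 0, with a median of -0.17, and 0 called. Sdhb, its iron-sulfur subunit, was at -0.30 (adjusted p = 0.0657 by limma) and Sdha, the flavin subunit, at -0.17 (adjusted p = 0.0636). Sdhc was at -0.07 and Sdhd at -0.17. Sdha was lower in all 4 mutants, at 10779, 11300, 10758 and 10767 in mutants 1 to 4 and 11693, 12430, 12440 and 12413 in controls 1 to 4. Such groups without overlap, lower in mutants, were found for 6.72% of all genes. The authors' deposited table calls both Sdha and Sdhb lower.

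Assembly factors were mostly not called. Of 23 tested factors of complex IV, 1 was called higher and 1 lower, near the 8.43% of all genes called in either direction. Higd1a, a hypoxia-inducible protein that binds complex IV, averaged 5847 ± 403 normalised reads in mutants and 1482 ± 135 in controls (SD, n = 4 each), with a log2 fold change of 1.98 (SE 0.08, adjusted p = 1.59e-08 by limma). Cox15, which makes the heme a of complex IV, had 1663, 1637, 1539 and 1565 in mutants 1 to 4, against 1930, 1780, 1975 and 1866 in controls 1 to 4, with a log2 fold change of -0.24 (SE 0.06, adjusted p = 0.0234). All 4 mutants were below all controls, as for 6.72% of all genes. The Cox15 call held in only 4 of the 8 fits that left out 1 library, with adjusted p up to 0.0841 by limma. Cox11, a copper-insertion factor, and Pet100 were at 0.23 and 0.29 (adjusted p = 0.0572 and 0.0681). In both, all mutants were above all controls, as for 8.54% of all genes, and the authors' deposited table calls both higher (adjusted p = 0.0225 and 0.0312). Of 6 factors of complex III and 3 of complex V, 0 were called; Uqcc1 was at -0.13 (adjusted p = 0.203) and Atpaf1, which brings the beta subunit into the head, at -0.16 (adjusted p = 0.097).

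Among 14 regulators of mitochondrial biogenesis and turnover, 2 were called higher and 0 lower, against 5.40% of all genes called higher and 3.03% lower. Mxi1, a repressor that opposes Myc, had 5345, 5360, 5244 and 5325 normalised reads in mutants 1 to 4, against 3518, 3406, 3806 and 3602 in controls 1 to 4 (log2 fold change 0.57, SE 0.05, adjusted p = 2.95e-05 by limma). Lonp1, a protease of the mitochondrial matrix, had 9039, 9742, 8607 and 9798 in mutants, against 5696, 6502, 6620 and 6170 in controls (0.57, SE 0.07, adjusted p = 2.25e-04). In both genes all mutants were above all controls, as for 8.54% of all genes. Of the factors whose letters were searched in the promoters, those in this list were not called: Nrf1 was at 0.02, Gabpa at 0.19, its partner Gabpb1 at -0.03 and Yy1 at 0.10. Tfam, which packages mitochondrial DNA, was at -0.06, the coactivator Ppargc1a at -0.02, its relative Pprc1 at -0.34 (adjusted p = 0.0551) and Esrra at 0.00. For Pprc1 all mutants were below all controls, as for 6.72% of all genes, and the authors' deposited table calls it lower (adjusted p = 0.01).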

How the data were processed

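Per the labels' protocols, a stranded mRNA kit was used for library preparation, and each of the 8 libraries was grouped by its labelled genotype. Reads were handled by the authors with STAR 2.5.3a and DESeq2 1.18.1 on mm10, per the submitters' processing notes. The counting program, its annotation and its strand setting are not named in the sources used here. The deposited signal per library is reads over a size factor. Its values reveal a second such division, with the factors recycled down the genes. Undoing it gave whole reads from which the deposited mean follows within a relative tolerance of 1e-09 for 20254 of 20254 genes, while without that step it succeeded for 0 of the 11635 genes at 100 or more in every library. The authors' deposited log2 fold changes, p-values and adjusted p-values served as an alternative, and their deposited score was not used.

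Normalised reads here are reads divided once by the size factor (0.872 to 1.08). Genes with at least 10 in at least 4 libraries were tested on log2(value + 1) in 1 fit of all 8 libraries with limma 3.58.1 in R 4.3.3, with a variance trend, robust moderation, no covariate and two-sided p-values adjusted by Benjamini-Hochberg over 15381 genes. The threshold for a call was an adjusted p under 0.05. This scale understates fold changes of genes with few reads. The fitting script was tested on simulated data. A count model had been planned; the deposited values are a signal, so limma-voom on the rebuilt reads stood in for it. Members, lists and named genes were chosen with earlier results of these data known. Full values are given for called members, the 3 members of each complex with the smallest p, tissue versions and members the authors call, and Cox7c was added after its values were seen; of each pathway list, up to 4 genes with the smallest adjusted p, Cox4i1, Cox4i2, Ndufa4 and Ndufa4l2 are named by rule, and the other list genes were named after their values were seen. Positions and median coding transcript lengths are from GENCODE M21, and promoters from RefSeq (GRCm38.p6). A near-identical copy has at least 95% identity over at least 50% of 1 chosen transcript of the gene by blastn 2.17.0. The search covered GENCODE M21 transcripts, so copies in the genome outside that annotation were not looked for. Alternatives were other scalings, pseudocounts, minimums, quality weights, a replicate block and leaving out libraries. The total reads were 45.1, 46.5, 41.3 and 37.3 M in mutants 1 to 4 and 41.6, 43.0, 41.2 and 43.9 M in controls 1 to 4; both counting error and the spread between libraries limit the precision, with counting error weighing more for genes with fewer reads.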

Additional observations from a re-analysis of the deposited data

Results flagged for a closer look

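A library was flagged where it stood far from the other 3 of its group by the 95% critical value of Dixon's test for 4 libraries. Over 43 genes, 86 groups were screened and 8 flags were raised; chance flags about 1 group in 20, and the genes share their libraries. Mutant 3 was flagged 5 times and was the low library each time: for Atp5h at 5843 normalised reads (the others 6707 to 6842), Cox6c at 4293 (5168 to 5342), Cyc1 at 4579 (5436 to 5577), Uqcrc1 at 6582 (7966 to 8114) and Cox4i1 at 9814 (11842 to 12134). Control 1 was the low library for Atp5h at 5916 (the others 6708 to 6863) and for Cyc1 at 5465 (6314 to 6463). Control 3 was the low library for Atp5sl at 1369 (the others 1411 to 1413). Of these flags, 7 fall on the libraries that were low for most of the 35 subunit genes.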

How the results depend on the processing

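In 20 refits and the authors' deposited table, 28 of 38 members kept the sign of their fold change in every refit; the 10 that did not (Atp5e, Atp5g2, Atp5g3, Atp5h, Atp5k, Atp5s, Cox6a1, Uqcr11, Uqcrb and Uqcrh) all had fold changes near 0. Refits that called a member higher numbered 0. Cox6b2 was called in 19 of 20 refits, with adjusted p-values from 6.13e-04 to 0.0393, and was not called without control 2 and mutant 2 (-0.43, adjusted p = 0.0678). Members called lower, 1 in the reported fit, numbered 8 with library quality weights, where 8.93% of all genes were called lower, 1 to 5 with 1 library left out (5 without control 1 and 3 without mutant 1), 0 without control 2 and mutant 2, 4 without control 1 and mutant 3 (chosen after seeing the data) and 2 in the authors' deposited table. The medians of the 3 complexes stayed below 0 in every setting, from -0.20 to -0.04. TMM scaling left the median of all genes at 0.00.

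Genes called higher, 831 in the reported fit, numbered 537 with the deposited values as they are, 1622 with quality weights, 522 without control 3 and mutant 2, 466 without control 2 and mutant 2, and 519 to 919 with 1 library left out. Genes called lower, 466 in the reported fit, numbered 160, 1374, 221 and 171 in the same 4 settings, 810 in the authors' deposited table and 230 to 653 with 1 library left out. In the pathway lists, genes called higher numbered 9 with quality weights and 7 in the authors' deposited table, against 5 in the reported fit. Those called lower, 2 in the reported fit, numbered 11 with quality weights, 1 with the deposited values, 5 in the authors' deposited table and 1 to 4 with 1 library left out. The causes were not tested.

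Same-numbered mutants and controls had correlations of 0.213, -0.143, -0.144 and 0.063 between their deviations from the group means. Such correlations cannot show whether the replicate numbers pair the libraries. With the replicate block, 550 genes were called higher and 216 lower, 1 member was lower (Cox6b2, adjusted p = 0.0356), and 1 pathway gene was lower. Control 3 correlated best with mutant 2 (0.57).

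The depth limits Cox7a1, whose libraries held 15 to 33 reads, and the muscle and testis versions under the minimum. Counts of genes with near-identical copies or partners on the other strand depend on counting rules not known here. Count models other than limma-voom were not run.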
